A study of Mus musculus with 26 samples.

Results

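Proteasome subunit genes encode the parts of the 26S proteasome, and their transcription in regenerating mouse liver was read here from RNA polymerase II (Pol II) ChIP-seq. The members were all rows of the Pol II files whose gene name begins with Psm followed by 1 of the letters a to f and a number, whose measured body was at least 500 bp wide and whose name occurred once. This gave 43 genes of 20933 measured and of 31804 entries in all. They comprised 8 alpha and 7 constitutive beta subunits of the 20S core, 3 inducible beta subunits, 6 ATPases and 11 non-ATPase subunits of the 19S cap, 3 assembly factors of the 19S cap, 4 activators and 1 inhibitor. The names Psmc3ip, Psme2b-ps and Psmb5-ps, which denote a gene of another function and a pair of copies, did not meet the rule.

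The 20S core is a hollow barrel of stacked rings, with alpha rings at the ends that gate entry and beta rings inside that carry the protease sites. The 19S cap recognises proteins tagged with ubiquitin, removes the tag, unfolds the protein with its ATPase ring and threads it into the core. Cells can replace the cap by an activator ring, and can replace the catalytic beta subunits by inducible ones that favour peptides suited to antigen presentation. In the liver, proteasomes degrade cell cycle regulators and much of the protein that hepatocytes turn over.

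The livers came from wild-type male C57BL6/J mice aged 7 weeks. Partial hepatectomy took out 3 of the 5 lobes, and that removed tissue itself served as the 0 h sample. Livers were collected at 3, 8, 16, 24, 36, 48 and 168 h, with 5 mice per time point, and the sources used here do not say whether their tissue was pooled. Each antibody (Pol II, C/EBPα and C/EBPβ, a pair of liver transcription factors) had 1 library per time point, and Egr1, an immediate early transcription factor, had 1 at 36 h. The tissue was whole liver, so fewer cells of a type and less Pol II per cell cannot be told apart. With 1 library per time point, and the same 0 h library in every comparison with 0 h, a change against 0 h has no replicate check, and a library's own quality and its time point cannot be told apart. The 8 hepatocyte markers all passed the filter on low values described below, with a summed signal of 441 to 926 units per bp, against 1.4 to 5.79 for 10 leukocyte and macrophage markers, 2.10 to 4.36 for 6 endothelial markers and 0 to 0.448 for 6 stellate cell markers. The 3 measured cholangiocyte markers were at or below 0 in 6 of the 8 libraries and summed to 3.80 at 16 h through Sox9.

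Promoter sequence is shown for 6 members that the results below turn on, as the 250 bases before the RefSeq start of build GRCm38.p6, read 5′ to 3′ on the gene's strand. Psma7 had the largest increase over 0 h of any member, Psma5 had C/EBP regions inside this window, and Psmd4 lay in an Egr1 peak. Psmb3 had a C/EBP region in every list, Psmb6 carried an antioxidant response element core beside its start, and Psme3 was the activator with the highest Pol II signal at 24 h relative to 0 h. Capitals mark matches, on either strand, to the motifs searched: the C/EBP core TTGCNNAA, the antioxidant response element core TGACNNNGC (bound by the proteasome gene regulators Nrf1 and Nrf2), the NF-Y box CCAAT and the ETS core CCGGAA. Matches of different motifs can overlap. The windows are chr2:180042465-180042714 (minus strand), chr3:108256676-108256925 (plus), chr3:95042615-95042864 (minus), chr11:97703184-97703433 (plus), chr11:70525107-70525356 (plus) and chr11:101315963-101316212 (plus).
Psma7: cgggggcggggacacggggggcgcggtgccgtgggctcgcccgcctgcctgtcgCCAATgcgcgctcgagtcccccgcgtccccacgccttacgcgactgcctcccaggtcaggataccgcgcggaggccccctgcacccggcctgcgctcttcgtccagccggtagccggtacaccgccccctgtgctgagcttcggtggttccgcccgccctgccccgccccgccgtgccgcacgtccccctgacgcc
Psma5: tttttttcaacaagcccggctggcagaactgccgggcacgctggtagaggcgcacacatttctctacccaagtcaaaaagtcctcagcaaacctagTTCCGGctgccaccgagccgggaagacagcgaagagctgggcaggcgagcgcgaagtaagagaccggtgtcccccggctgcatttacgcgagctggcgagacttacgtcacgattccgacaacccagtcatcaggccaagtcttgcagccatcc
Psmd4: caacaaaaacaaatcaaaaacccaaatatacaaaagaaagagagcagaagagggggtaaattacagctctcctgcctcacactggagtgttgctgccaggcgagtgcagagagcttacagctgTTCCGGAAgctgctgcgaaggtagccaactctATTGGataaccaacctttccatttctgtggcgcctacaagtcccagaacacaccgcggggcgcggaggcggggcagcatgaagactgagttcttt
Psmb3: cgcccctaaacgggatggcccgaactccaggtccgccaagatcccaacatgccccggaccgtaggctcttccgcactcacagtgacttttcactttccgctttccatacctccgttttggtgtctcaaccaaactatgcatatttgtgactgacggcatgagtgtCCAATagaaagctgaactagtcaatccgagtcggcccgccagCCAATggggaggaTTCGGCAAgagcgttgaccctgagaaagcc
Psmb6: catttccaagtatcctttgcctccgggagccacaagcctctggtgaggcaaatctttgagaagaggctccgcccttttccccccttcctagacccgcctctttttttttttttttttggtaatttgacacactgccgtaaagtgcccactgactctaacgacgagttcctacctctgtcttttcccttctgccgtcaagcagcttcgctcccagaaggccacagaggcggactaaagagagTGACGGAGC
Psme3: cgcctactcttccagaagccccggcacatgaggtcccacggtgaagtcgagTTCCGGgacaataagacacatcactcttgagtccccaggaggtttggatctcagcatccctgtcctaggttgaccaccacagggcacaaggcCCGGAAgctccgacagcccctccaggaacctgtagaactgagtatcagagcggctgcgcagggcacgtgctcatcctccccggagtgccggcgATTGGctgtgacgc

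The promoter table held 39 promoters of 36 members; Psma8, Psmb1, Psmb2, Psmb7, Psmc3, Psmd3 and Psmd7 are named only. The ETS core was found in 17 of the 39 member promoters (43.6%), against 12.0% of all 32851 promoters of that length and 21.0% of the promoters of genes above the filter. In Psmd13 its matched letters ended 1 base before the start, in Psmd11 and Psmf1 they lay 10 to 5 bases before it, and in Psmd12 and Psmd10 16 to 11 bases before it. The NF-Y box was found in 13 of the 39 (33.3%), against 33.8% of all promoters. The antioxidant response element core was found in 5 of the 39 (12.8%), in Psmb5, Psmb6, Psmc6, Psmd9 and Psmd12, against 10.2% of all promoters. The C/EBP core was found in 3 of the 39 (7.69%), in Psma6, Psmb3 and Psmf1, against 9.56% of all promoters. A match is a run of letters and says nothing of binding, and the shares for the last 3 motifs lay near those of all promoters.

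The authors' Pol II value is a signed signal per gene, which was divided by the width of the measured body and scaled between libraries, so that levels can be compared between genes as signal units per bp. Sequencing depth is unknown, since the files give no read counts. A gene passed the filter on low values when it had more than 0.5 units per bp in at least 2 of the 8 libraries; 4761 genes did, among them 23 of the 43 members. These 23 comprised 5 of the 8 alpha, 4 of the 7 beta, 1 of the 3 inducible beta, 5 of the 6 ATPase and 6 of the 11 non-ATPase subunits, 2 of the 4 activators, and none of the 3 assembly factors and the 1 inhibitor. A gene can pass through the libraries in which it is high, so values over all 43 members are given as well. Changes are differences of log2(signal + 0.5), with values below 0 set to 0, and understate the change of low genes.

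Most members had low Pol II signal over their bodies, and 1 stood far above the rest. The mean over the 8 libraries ran from -0.163 in Psma8, the alpha subunit known from testis, to 20.5 in Psmb10, with quartiles of 0.137 and 0.746 over the 43 members. Psmb10 ranked at the 98.0th percentile of genes above the filter by this mean. The next highest members were Psma7 at 2.35, Psme1 at 2.26 and Psmc5 at 2.09, between the 73.2nd and the 75.9th percentile. Across the 43 members, longer bodies went with lower signal (Spearman's rho of -0.30, n = 43 genes that share the same libraries). The 23 members above the filter gave -0.42, and the 4761 genes above the filter gave -0.17.

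**Figure D1:**
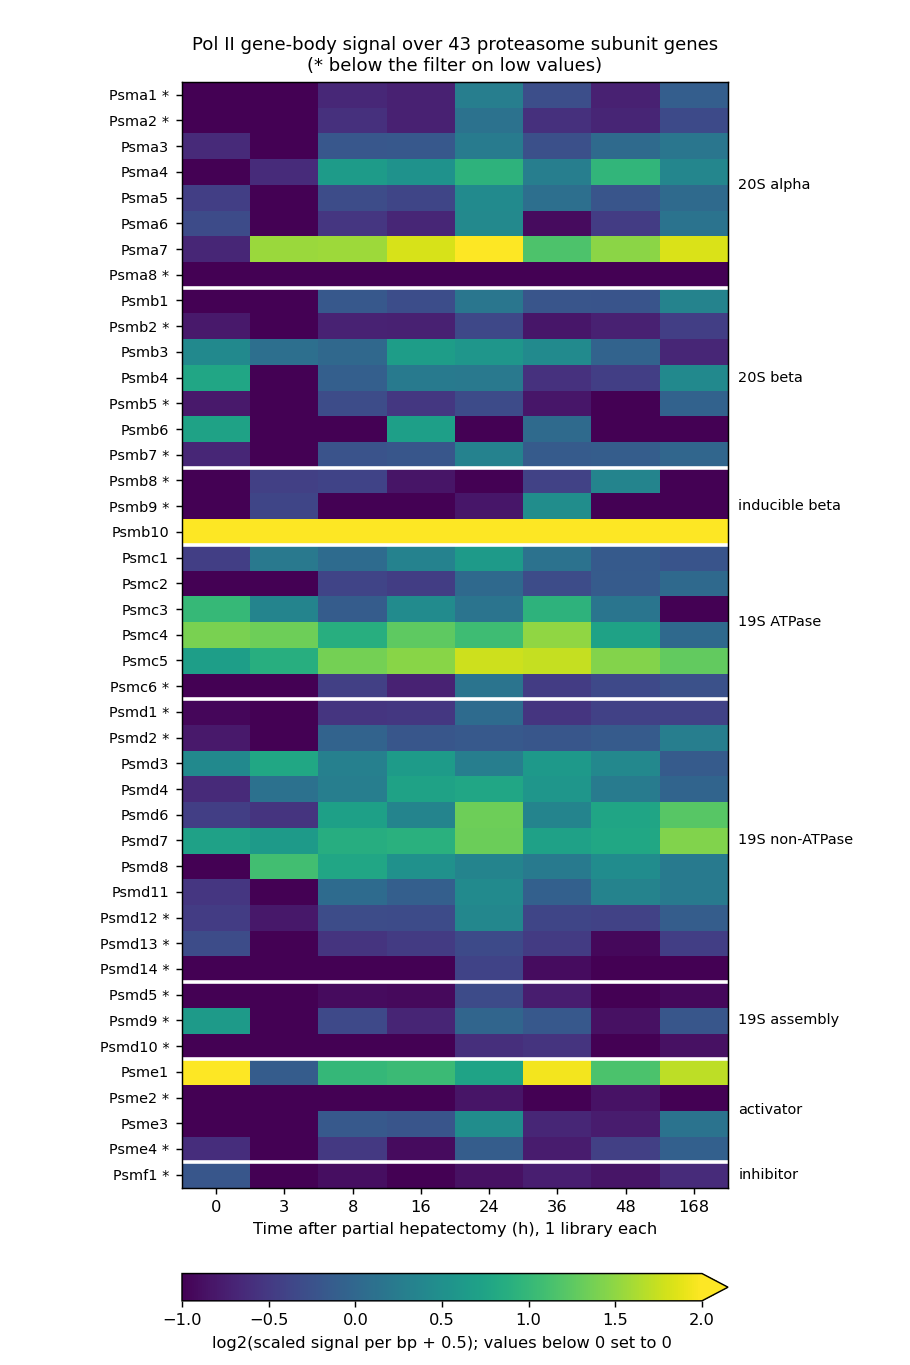
Pol II level of all 43 members (rows, grouped by class, an asterisk marking members below the filter) in the 8 libraries (columns, h after partial hepatectomy), as log2(signal per bp + 0.5); the colour scale ends at 2, above which lie all 8 Psmb10 values, Psma7 at 24 h and Psme1 at 0 h. The 24 h column is brighter than its neighbours in many rows, and the 3 h column is dark in the 26 rows whose value was below 0.

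Pol II signal over the members was highest in the 24 h library more often than over other genes, a pattern noticed after the values were seen. The 24 h library held the highest of the 8 values for 21 of the 43 members, against 14.3% of all measured genes. It held the highest value for 11 of the 23 members above the filter, against 13.3% of the genes above it. Among the 21 members between the lower and upper quartile of mean signal it did so for 13, against 19.3% of all genes in that range of mean signal. The 3 h library held the lowest value for 26 of the 43 members, against 42.6% of all measured genes. These shares are descriptions of 8 libraries and carry no test. By class, 24 h was the highest library in 6 of 8 alpha, 2 of 7 beta, 4 of 6 ATPase and 6 of 11 non-ATPase subunits, 2 of 4 activators, 1 of 3 assembly factors and none of the inducible subunits and the inhibitor.

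Against 0 h, the 24 h library also had the most members higher by 1 or more on the log2 scale. There, 10 of 23 members were higher by that size, against 18.4% of the genes above the filter, and 2 were lower, against 14.4%. The 10 were Psma4, Psma7, Psmb1, Psmc1, Psmc2, Psmc5, Psmd4, Psmd6, Psmd8 and Psme3, and the 2 were Psmb6 and Psme1. Over all 43 members, 14 were higher by that size at 24 h, against 4.92% of all measured genes. These shares are not matched by level: genes below the filter had a median signal of -0.14 at 0 h and at 24 h, and values below 0 count as 0. The count of 10 moved with the scale: it was 14 with a pseudocount of 0.1 (28.9% of genes), 1 with a pseudocount of 2 (3.07%), 6 of 21 without scaling between libraries (13.0%), and 3 when the mean of the 0 and 168 h libraries was the reference (8.95%). In the same library 4 of the 8 hepatocyte markers were higher by 1 or more and none lower, while the summed signal of the leukocyte and macrophage markers was at its lowest, 1.4; their part in the result was not tested.

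The other libraries gave smaller counts. At 3 h, 2 of 23 members (Psma7 and Psmd8) were higher by 1 or more, against 18.1% of genes, and 3 (Psmb4, Psmb6 and Psme1) were lower, against 21.4%. At 8 h, 4 were higher, against 14.5%, and 3 lower, against 12.8%. At 16 h, 4 were higher, against 15.1%, and 1 was lower, against 10.6%. At 36 h, 5 were higher, against 16.5%, and 1 lower, against 11.1%. The 48 h library had 4 higher, against 15.2%, and 3 lower, against 13.5%. At 168 h, when regrowth of liver mass is largely complete, 7 were higher, against 17.7%, and 4 (Psmb3, Psmb6, Psmc3 and Psmc4) were lower, against 19.3%. The counts at 168 h moved with the scale. They were 2 higher and 7 lower of 21 without scaling between libraries (6.15% and 35.2% of genes), 6 and 6 of 22 with scaling by summed signal (11.7% and 26.1%), and 1 and 0 of 23 with a pseudocount of 2 (2.58% and 6.07%). Apart from 24 h and the higher members at 168 h, the shares of the 23 members were within 10 percentage points of those of all genes above the filter. Over all 43 members, 2, 4, 4, 6, 5 and 8 were higher at 3, 8, 16, 36, 48 and 168 h. The shares of measured genes were 4.78%, 3.30%, 3.65%, 4.27%, 3.58% and 5.48%. Those lower were 4, 3, 2, 1, 4 and 4, against 6.76%, 4.78%, 4.11%, 4.24%, 4.90% and 6.19%. These shares of measured genes are not matched by level.

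The median change of the 23 members in the 7 later libraries, in order of time, was -0.07, 0.46, 0.43, 0.89, 0.37, 0.23 and 0.60. The same median over all 4761 genes lay between -0.08 and 0.12 at every time. The median of the 23 members was above that of all genes above the filter from 8 h on. Of these 23, Psma6, Psmb1, Psmc2 and Psme3 passed the filter through the 24 and 168 h libraries only. Without the 3 members that have a gene of higher mean signal within 2 kb, the median of the other 20 was 0.15 at 8 h and 0.23 at 16 h, against 0.06 and 0.09 over all genes, a check chosen after seeing the data. With scaling by summed signal the 168 h median was 0.28, against -0.20 over all genes. Without scaling, the median of genes above the filter in the 168 h library moved to -0.56 and that of the members to -0.02.

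**Figure D2:**
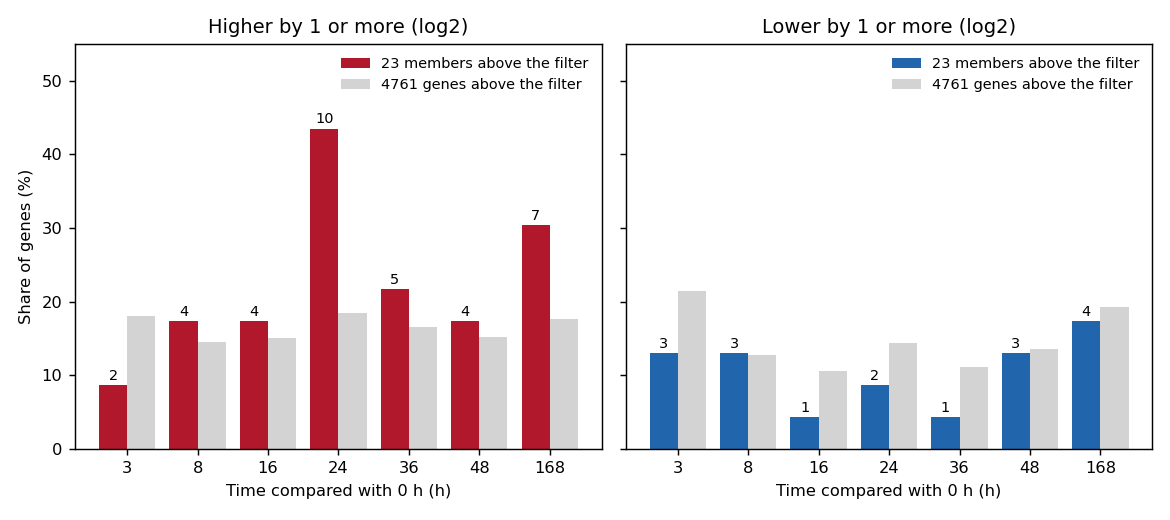
Share of the 23 members above the filter (coloured bars, with their number on top) and of the 4761 genes above it (grey bars) that were higher (left) or lower (right) by 1 or more on the log2 scale than in the 0 h library, in % (y axis), by time in h (x axis). The tallest bar is that of the members higher at 24 h, 10 of 23.

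A smooth trend over the order of the 8 libraries was tested in limma across all genes above the filter. None of the 23 members passed an adjusted p of 0.05, and 1 gene of the 4761 did (0.0210%). At an unadjusted p of 0.05, 4 of the 23 members (Psma4, Psma7, Psmc3 and Psmd4) and 9.62% of all genes passed. The lowest adjusted p of a member in limma was 0.465, for Psma7. In simulated data for this comparison, over 4761 genes, the planted changes rose and fell smoothly over the 8 libraries. The test recovered 13 of the 100 genes given a log2 change of 2 and 67 of the 100 given a change of 4. A smooth change of the size seen in most members was thus seldom detectable in this design. A change in 1 library only was not simulated, so its recovery is unknown.

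The alpha subunits form the outer rings of the core. Psma7 had signal of 0.123, 2.43, 2.46, 3.03, 3.66, 1.73, 2.29 and 3.04 units per bp at 0, 3, 8, 16, 24, 36, 48 and 168 h. The 0 h library was the lowest by a wide margin, and every later library was at least 1.84 above it on the log2 scale, up to 2.74 at 24 h. The body measured lies at chr2:179771081-179776613 on the minus strand (build mm9), and its start is 101 bp from that of Ss18l1, a gene read in the other direction. Ss18l1 had 0.334 at 0 h and values below 0 in all 7 later libraries.

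Psma4 had -0.399, 0.147, 1.07, 0.945, 1.42, 0.717, 1.46 and 0.798 units per bp at the same times. It was below 0 at 0 h, low at 3 h and above 0.7 in each later library, with its largest change, 1.97, at 48 h. The other alpha subunits above the filter, Psma3, Psma5 and Psma6, were highest at 24 h with 0.686 to 0.848 units per bp and below 0 at 3 h. Psma1 and Psma2, below the filter, were also highest at 24 h, at 0.719 and 0.593. Psma8 was below 0 in all 8 libraries.

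The beta subunits form the inner rings, and Psmb5, Psmb6 and Psmb7 carry the protease sites of the constitutive core. Psmb4 had 1.21, -0.321, 0.439, 0.680, 0.658, 0.174, 0.234 and 0.838 units per bp from 0 to 168 h. Psmb6 had 1.15, -0.520, -0.0547, 1.12, -0.279, 0.522, -0.0919 and -1.21. Both were highest at 0 h, and Psmb6 was at or below 0 in 5 of the 8 libraries. The measured bodies of Psmb6 and Psmb4 span 1764 and 2108 bp, and with that of Psmb10 (1845 bp) are among the shortest of the 43, so a signal per bp rests on few positions in these 3 genes.

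Psmb3, a structural beta subunit, had 0.846, 0.568, 0.511, 1.09, 0.991, 0.856, 0.466 and 0.123 units per bp. It lay near 1 from 16 to 36 h and was lowest at 168 h, with a log2 change of -1.11 against 0 h. Psmb1 was the only other beta subunit above the filter, with -0.0396, 0.636 and 0.764 units per bp in the 0, 24 and 168 h libraries. Psmb2, Psmb5 and Psmb7, below the filter, had means of 0.0820, 0.135 and 0.344 units per bp.

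The inducible beta subunits take the place of the catalytic ones in the immunoproteasome. Psmb10, the inducible counterpart of Psmb7, had 20.5, 38.1, 15.0, 20.4, 15.9, 24.2, 18.0 and 12.2 units per bp. The 3 h library was the highest, 0.88 above 0 h, and the 168 h library the lowest, with a change of -0.72, and no change reached 1 in size. In every library Psmb10 lay above every other member, over 1 of the shortest measured bodies. Its counterpart Psmb7 had 0.128 units per bp at 0 h and 0.762 at its highest, at 24 h.

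Psmb10 lies among genes with signal of their own. Lcat, the plasma cholesterol acyltransferase made by hepatocytes, is read from the same strand with its body 1472 bp from the start of Psmb10. It had 13.4, 24.5, 12.1, 12.1, 8.85, 7.10, 10.4 and 9.51 units per bp. Like Psmb10 it was highest at 3 h, but it was lowest at 36 h, where Psmb10 had its second highest value, and r over the 8 libraries was 0.62 (they share libraries). Ctrl, which encodes a chymotrypsin-like protease of the pancreas and is also read from the same strand, has its start 1895 bp from the body of Psmb10. It had 2.90, 4.65, 1.43, 3.33, 0.149, 2.87, 2.60 and -1.88 units per bp. Ctrl was highest at 3 h and lowest at 168 h, as Psmb10 was, with r of 0.79 over the same 8 libraries. The 2 other inducible subunits, Psmb8 and Psmb9, were below the filter with means of 0.110 and -0.000596 units per bp, and each exceeded 0.5 in 1 library, Psmb8 at 48 h (0.776) and Psmb9 at 36 h (0.888). Of the wider antigen presentation list, 6 of 10 genes passed the filter, and none was higher or lower by 1 or more in 2 neighbouring libraries. B2m, the light chain of class I molecules, had 2.24 at 0 h and ran from 0.667 (3 h) to 7.21 (168 h), and Tap1, the peptide transporter gene that shares its start region with Psmb9, stayed at or below 0.336.

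**Figure D3:**
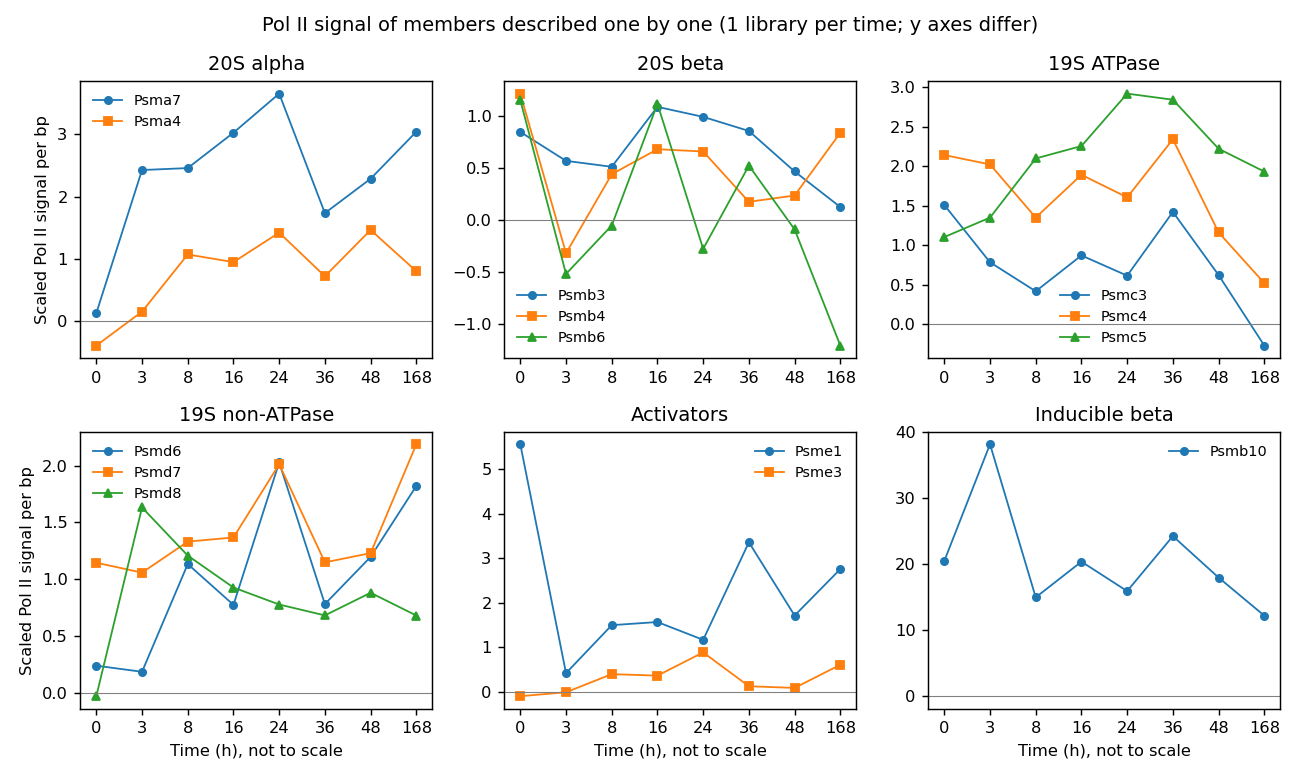
Scaled Pol II signal per bp (y axes, different in each panel, grey line at 0) in the 8 libraries (x axis, h, evenly spaced; points are single libraries and the lines only join them) for the members described by their 8 values. Psma7, Psma4 and Psmd8 have their lowest point at 0 h, Psme1 and Psmb4 their highest, and Psmb10 its peak of 38.1 at 3 h.

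The ATPases form the ring of the cap that unfolds substrates. Psmc5 had 1.10, 1.35, 2.10, 2.25, 2.92, 2.84, 2.22 and 1.93 units per bp from 0 to 168 h. It was lowest at 0 h and highest at 24 and 36 h, where it was 1.09 and 1.06 above 0 h on the log2 scale. Smarcd2, on the other strand with its body 682 bp away, had the higher mean, 5.93, and was highest at 0 h.

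Psmc3 had 1.51, 0.782, 0.416, 0.869, 0.613, 1.42, 0.620 and -0.271 units per bp. Psmc4 had 2.14, 2.02, 1.35, 1.89, 1.60, 2.34, 1.16 and 0.519. Both were lowest at 168 h, with log2 changes of -2.01 and -1.37 against 0 h, and both had a high value at 36 h. The remaining ATPase genes were highest at 24 h, with Psmc1 at 1.05, Psmc6 at 0.613 and Psmc2 at 0.517 units per bp.

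The non-ATPase subunits include the ubiquitin receptor Psmd4 and the deubiquitinase Psmd14. Psmd8 had -0.0322, 1.63, 1.21, 0.926, 0.776, 0.680, 0.880 and 0.679 units per bp. The 0 h library was the only 1 below 0 and the 3 h library was the highest, 2.09 above it on the log2 scale. Its neighbour Ggn, on the other strand with its body 343 bp away, had 5.22 at 0 h and 17.4 at 3 h, so that the gene nearby was also highest at 3 h.

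Psmd6 had 0.237, 0.183, 1.13, 0.773, 2.03, 0.780, 1.20 and 1.82 units per bp. Psmd7, the partner of the deubiquitinase, had 1.15, 1.06, 1.33, 1.37, 2.01, 1.15, 1.23 and 2.19. Both were high at 24 and 168 h, and the largest change was 1.78 in Psmd6 and 0.71 in Psmd7. Psmd4 had 0.142 at 0 h and 1.22 at its highest, at 24 h. Psmd3 was highest at 3 h (1.23), Psmd11 at 24 h (0.847), and Psmd14 exceeded 0.05 in the 24 h library only, at 0.258. The 3 assembly factors Psmd5, Psmd9 and Psmd10 were below the filter, and Psmd9 had 1.05 at 0 h and no more than 0.486 later.

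**Figure D4:**
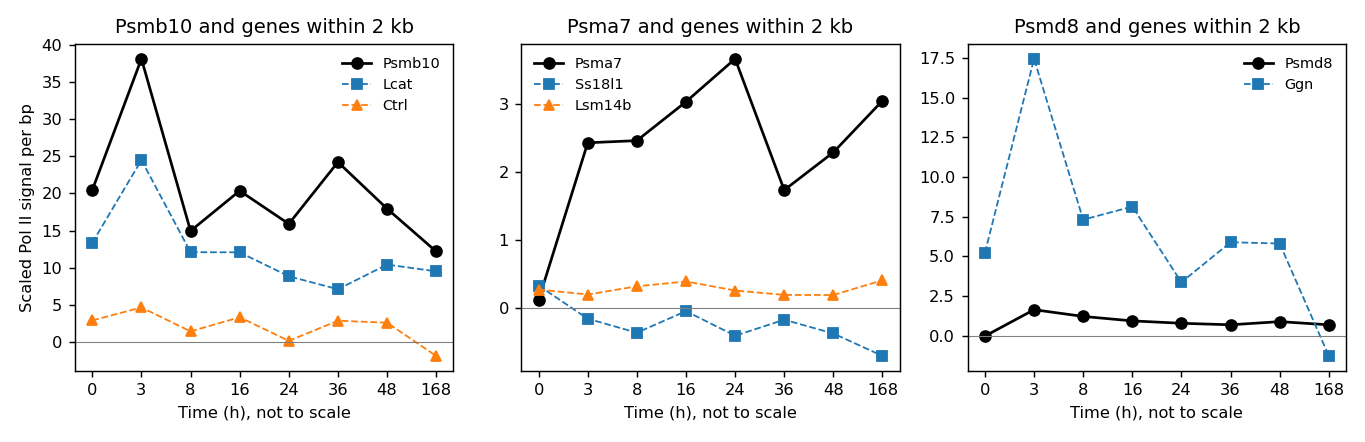
Scaled Pol II signal per bp (y axes, different in each panel, grey line at 0) of Psmb10, Psma7 and Psmd8 (black) and of measured genes within 2 kb (dashed) in the 8 libraries (x axis, h, evenly spaced). Lcat and Ggn are highest at 3 h, as are Psmb10 and Psmd8, whereas Ss18l1 lies below 0 after 0 h.

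Among the activators, Psme1, an interferon-inducible ring subunit that works with the immunoproteasome, had 5.56, 0.419, 1.50, 1.57, 1.17, 3.36, 1.71 and 2.76 units per bp. The 0 h library was the highest and the 3 h library the lowest, with a log2 change of -2.72, and 36 h was the highest of the later libraries. Its body at chr14:56197811-56200364 (mm9) touches that of Fam158a on the other strand, which had 1.11, 0.492 and 1.98 in the 0, 3 and 36 h libraries. Psme2, which pairs with Psme1 in the same ring, was at or below 0.0635 in all 8 libraries; a copy of it, Psme2b-ps, is listed apart, and the sources used here do not say how reads that fit both were treated.

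Psme3, the nuclear activator, had -0.0993, -0.0104, 0.396, 0.363, 0.885, 0.125, 0.0868 and 0.607 units per bp. It was below 0 in the first 2 libraries and highest at 24 h, 1.47 above 0 h on the log2 scale. Psme4 had a mean of 0.183, and the inhibitor Psmf1 had 0.370 at 0 h and at most 0.145 in the later libraries.

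Among subunits above the filter, core and cap had nearly the same median level at 0 h. From 3 to 48 h the core median of these subunits lay below that of the cap. On the log2 scale, the median of the 9 core subunits above the filter (alpha and constitutive beta) minus that of the 11 cap subunits (ATPase and non-ATPase) was 0.00, -1.36, -0.48, -0.27, -0.23, -0.55, -0.61 and 0.15 in the 8 libraries in order of time. At 3 h the median core subunit was at or below 0, whereas that of the cap was 0.36 on the log2 scale, where 0 signal is -1. Over all 15 core and 17 cap subunits the difference in level at 3 h was -0.45. Their medians already differed at 0 h, at -0.68 in the core and -0.46 in the cap, so the near equality at 0 h depended on the filter. The median change against 0 h differed less at 3 h, at -0.36 in the 9 core and 0 in the 11 cap subunits. Core minus cap by median change was -0.36, -0.43, -0.30, -0.15, -0.20, -0.53 and -0.13 from 3 to 168 h. The core pooled 2 kinds of subunit that differed. Over the 5 alpha subunits the median change was -0.36, 0.46, 0.47, 0.89, 0.53, 0.67 and 0.82 from 3 to 168 h. Over the 4 beta subunits it was -1.03, -0.64, 0.10, -0.21, -0.34, -0.85 and -0.73. The cap had 0, 0.57, 0.54, 1.02, 0.57, 0.76 and 0.61, so the core values do not describe alpha and beta subunits alike. The differences in level at 16 h and 24 h were smaller than 0.36, the members' typical residual SD in the trend fit. That SD is of single genes around a curve and does not measure the spread of a difference between medians. It therefore does not show that the larger differences exceed noise. Core and cap were not tested against each other, because their members share the libraries.

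At 24 h, genes that work with the proteasome had a median change of 1.10 over 4 assembly and partner genes above the filter (2 higher by 1 or more, 1 lower), 0.03 over 7 regulators (0 higher, 1 lower) and 0.67 over 6 ubiquitin and shuttle genes (2 higher, 0 lower). Over all genes above the filter the median change at 24 h was 0.07, with 18.4% higher and 14.4% lower by 1 or more. The lists are small and were not tested. Of 11 measured assembly and partner genes, 4 passed the filter, and Adrm1, a ubiquitin receptor of the cap, had 0.164, 4.89, 2.61, 3.88, 3.19, 3.57, 2.91 and 0.856 units per bp. Its change of 3.02 at 3 h was larger than that of any member in any library. Psmg3, an assembly chaperone, had log2 changes of -1.11, -1.56 and -1.30 at 8, 16 and 24 h. Of 8 measured regulators, 7 passed the filter; Nfe2l1, which encodes Nrf1, had its largest change, 0.65, at 16 h, and Mafk, a small Maf partner, had changes of -1.61 and -1.08 at 24 and 36 h and its largest, -2.92, at 168 h, where its signal was below 0. Of 11 measured ubiquitin and shuttle genes, 6 passed, and Rad23b, a ubiquitin shuttle, had -0.0846 at 0 h and was highest at 24 h, at 0.813. In the limma trend test the adjusted p of Adrm1, Psmg3, Nfe2l1, Mafk and Rad23b lay between 0.527 and 0.970.

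Among members above the filter, the share with a C/EBP region near the start was close to that of all genes above it. To make lists of unequal length comparable, the 20061 top-scoring regions of each of the 16 C/EBP lists were used, and a region counted when its centre lay within 1 kb of a start. For C/EBPα, the number of the 23 members above the filter with a region, with the share of all genes above the filter in parentheses, was 5 (21.3%), 6 (26.4%), 4 (20.1%), 6 (24.9%), 4 (17.5%), 7 (26.7%), 8 (28.4%) and 7 (28.3%) from 0 to 168 h. For C/EBPβ, it was 5 (19.7%), 9 (37.9%), 5 (23.9%), 6 (23.9%), 4 (18.9%), 10 (35.2%), 5 (26.8%) and 5 (26.3%). The 3 h and 36 h C/EBPβ lists had the most members and also the most genes. Over all 43 members they held 13 (19.5% of all measured genes) and 15 (18.3%). The 24 h lists held 4 each, against 8.08% of measured genes for C/EBPα and 8.77% for C/EBPβ. Over all 43 members the share was above that of measured genes in every C/EBP list except that of C/EBPα at 8 h (4 members, against 9.42%). The difference was thus not particular to the 3 h and 36 h C/EBPβ lists. A larger part of the members than of measured genes passed the filter (23 of 43, against 4761 of 20933). The shares over all 43 members are therefore not matched by level.

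Of the 43 members, 19 had a region in at least 1 of the 16 lists (28.3% of measured genes, 52.1% of those above the filter), 8 had one in 8 or more lists (11.7% and 24.7%) and 24 had none. The 8 were Psmb3 (16 lists), Psme1 (15), Psmb6 (14), Psmc5 (13), Psmd4 (12), Psme3 (11), Psmd5 (10) and Psmb2 (9). Thus 3 of 7 beta subunits and 2 of 4 activators, but none of 8 alpha subunits, were among them. Members found in 1 list only were Psma1, Psmb5, Psmb9, Psmb10, Psmc6 and Psmd1. With the start taken at the edge of the measured body, 500 bp further into the gene, the 8 members became 5, while the share of measured genes went from 11.7% to 11.1%, so the count for the members rested on where the start was set.

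**Figure D5:**
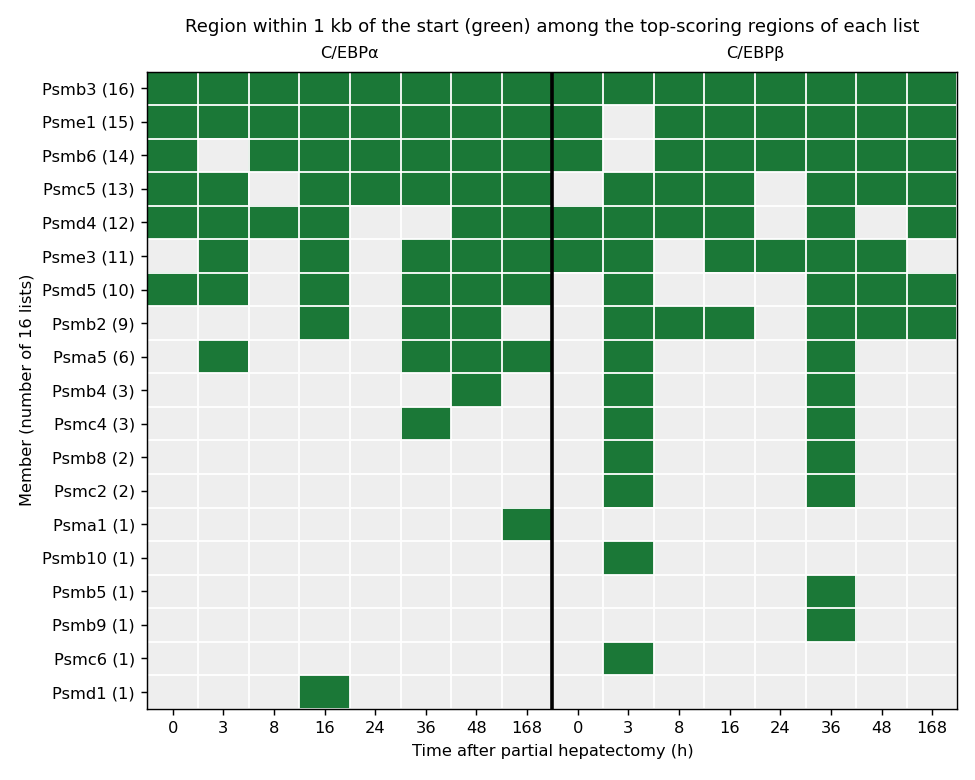
C/EBPα (left) and C/EBPβ (right) regions within 1 kb of the start of the 19 members with at least 1 (rows, with the number of lists), by time in h (columns); green marks a region among the 20061 top-scoring of that list. Psmb3 is green in all 16 columns, and the 3 h and 36 h C/EBPβ columns hold the most members.

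At Psmb3 the 16 regions lay within 793 to 919 bp before the start, for example at chr11:97563894-97563919 (mm9) in the C/EBPα list at 3 h, where it ranked 78th by the authors' score. At Psme1 they lay 441 to 592 bp before the start in 15 of the 16 lists of top-scoring regions, and all 16 full lists held a region there. At Psmb6 they lay 398 to 561 bp before the start in 14 of the 16 lists of top-scoring regions, and 15 of the 16 full lists held a region there. At Psmc5 they lay 445 to 927 bp before its start, beyond the start of Ftsj3, which is read in the other direction from 328 bp away. At Psme3 they lay 755 to 903 bp before the start. By distance from the start, the positions at Psmb3 and Psmb6 are outside the 250 bases printed for them. At Psme3 the starts given in mm9 and in GRCm38.p6 may not be the same place. Whether its regions overlap the printed bases was therefore not determined.

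At Psma5 the regions of 6 lists lay 13 to 38 bp before the start, inside the printed window, and they came from the 3, 36, 48 and 168 h lists of C/EBPα and the 3 and 36 h lists of C/EBPβ. No C/EBP core was found in that window. The builds of the regions (mm9) and of the sequence (GRCm38.p6) differ, so only distances from each build's own start are set side by side. At Psmb2 the regions lay from 177 bp before to 87 bp after the start. Psmb8 and Psmc2 had top-scoring regions in the 3 h and 36 h C/EBPβ lists only, whereas 3 and 5 of the 16 full lists held a region near them.

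Egr1 had a peak within 1 kb of 2 members at 36 h, against 3.78% of the genes above the filter. The peak at Psmd4 spans chr3:94846038-94847273 (mm9) and covers its start, and the 1 at Psmb10 spans chr8:108461832-108463435. Psmd4 thus had regions of all 3 factors, with its C/EBP regions 94 to 464 bp before the start. Its Pol II signal at 36 h was 0.994 units per bp, between those at 24 h and 48 h.

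Pol II changes of members with many, few and no C/EBP lists overlapped. At 24 h the median change was 0.62 over the 6 members above the filter with 8 or more lists, -0.33 over the 5 with 1 to 7 lists and 1.01 over the 12 with none. The ranges overlapped, from -1.86 to 1.47, from -0.57 to 1.02 and from -0.85 to 2.74.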

How the data were processed

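Pol II, C/EBPα, C/EBPβ and Egr1 ChIP-seq of mouse liver were grouped by antibody and time from the titles, and the mock sample was not analysed here. The submitters' processing notes list Bowtie 0.12.7, MACS 1.4.1 and mm9 without their roles. The deposited Pol II files give a signed signal per gene and the sources used here do not say how it was made; from its values it begins 500 bp past the start and has a background taken off. The regions' score is the authors' and served only to rank regions within a list. Each Pol II value was divided by its body's width and scaled by the median ratio over 1472 genes above 0.5 in all 8 libraries, which moved libraries by -0.32 to 0.97 on the log2 scale against 0 h. Trends were fitted in limma 3.58.1 (R 4.3.3) as a spline with 3 degrees of freedom over the order of the libraries, with Benjamini-Hochberg adjustment over 4761 genes, and were tested on simulated data. Starts were set 500 bp outside the body. Members with 8 values printed are the inducible, activator and inhibitor subunits above the filter and, in each other class, the highest by mean and the 2 with the largest change; Psmd4 and others were added after their values were seen. Other genes named come from lists of partners, regulators, shuttles and antigen presentation. The members, lists and rules were chosen with earlier results of these data known. Promoters are RefSeq sequences of GRCm38.p6. Alternatives changed the pseudocount, filter, scaling, reference, trend shape, libraries, distance, list length and start. Figures used matplotlib 3.10.9.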

Additional observations from a re-analysis of the deposited data

How the results depend on the processing

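No paired analysis was possible because each time point has 1 library. No member passed the trend test under any of the 17 alternatives run; the number of genes that did was 0 with a pseudocount of 0.1, no filter, genes above 0.5 in all 8 libraries, windows of time or a straight line, and 0 to 1 with each library left out. The members' median change was 0.87, 0.87, 1.49 and 0.89 at 8, 16, 24 and 36 h with a pseudocount of 0.1. It was 0.35 at 24 h and 0.21 at 168 h with a pseudocount of 2, -0.43 at 3 h and 0.51 at 24 h against the mean of 0 and 168 h, and -0.024 at 168 h without scaling. The 21 members highest at 24 h (14.3% of measured genes) were 11 among the 23 above the filter (13.3% of genes above it), 19 without scaling (13.9% of measured genes), 18 scaled by summed signal (13.9%) and 22 with the background set per library (15.4%), the last 4 chosen after seeing the data. Core minus cap at 3 h was -3.14 and -0.48 with pseudocounts of 0.1 and 2, -0.45 without a filter and -0.81 by means; at 48 h it was -0.98 with a pseudocount of 0.1. Over 8 lists, 7.25 members on average had a C/EBPα and 8 a C/EBPβ region, and 8 had one in 8 or more of 16 lists (11.7%, 13.1% and 11.7% of measured genes). These became 3.88, 3.75 and 2 of 43 with 10000 regions (6.21%, 6.98% and 6%), 4.25, 5 and 5 within 500 bp (8.08%, 9.43% and 8.05%), 12.5, 13 and 13 within 5 kb (21.4%, 22.7% and 21.6%), and 4.25, 5.12 and 5 with the start as given (11.1%, 12.5% and 11.1%). All other medians moved by less than 0.36, the members' typical residual SD. Values near 0 limit what can be read, and the cause of these moves was not tested.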
